A study of Mus musculus with 4 samples.

Results

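The genes described here are the cytokine receptor chains of naive and memory CD8 T cells and the signalling proteins behind them: Janus kinases (JAKs), STAT transcription factors and the SOCS proteins that switch the signal off. Members were chosen by gene symbol alone: interleukin receptor chains, Il6st, the interferon, GM-CSF, G-CSF and TGF-beta receptor chains, Jak, Tyk2, Stat and Socs genes, and Cish. There were 41 such genes, read by 48 probe sets, out of 6137 genes with a single symbol. Of the 41, 9 had a probe set on the B chip of the array pair, 34 on the A chip and 2 on both.

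Both populations were B6.2.16 CD8 T cells, which all carry 1 transgenic T cell receptor, for the male HY antigen, on a RAG1-deficient background, and all animals were female. The naive cells were taken from lymph nodes (purity above 85%). The memory cells descended from splenocytes of the same strain that had been stimulated in culture with HY peptide for 4 days and then parked in RAG1-deficient hosts. They were collected 200 days later from spleen and lymph nodes with magnetic beads (purity above 80%). RAG1-deficient hosts make no T or B cells of their own but keep macrophages, granulocytes and NK cells. The sources used here give neither the ages of the mice nor how many were pooled. There were 4 arrays, 1 per population on each of 2 Affymetrix chips, so no group had a replicate, no spread between samples could be measured and no test was possible. Every difference below compares 1 memory array with 1 naive array, and tissue, culture, transfer and sorting all changed together with the population.

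Cytokines such as IL-7 and IL-15 keep naive and memory CD8 T cells alive. A cytokine draws its receptor chains together, the JAKs bound to them phosphorylate the receptor, and STATs dock there, are phosphorylated in turn and enter the nucleus. Among the genes that STATs switch on are Cish and Socs genes, whose products bind receptors or JAKs and close the loop. Receptors of the IL-1 and IL-18 type signal instead through the adaptor MyD88, and TGF-beta receptors through SMAD proteins. Several of these receptors, the G-CSF receptor above all, are better known from myeloid cells than from T cells.

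A signal counted as above noise when it exceeded a noise limit, the size that 95% of the negative values stayed within: 423 on the scaled B arrays and 184 on the memory A array. The memory and naive B arrays tracked each other over 6540 gene probe sets (Spearman correlation 0.85, across probe sets, which are not replicates). On the A chip the correlation over 6529 probe sets was 0.10, and the 55 control probe sets shared by the chips gave 0.96 between the memory arrays but 0.21 between the naive arrays. The naive A values are therefore not used, and A-chip members are given by their memory level only. Some T cell markers were above noise in both populations. Of 7 on the B chip 5 were above noise on at least 1 array, with Thy1 and Cd3d above it on both. Cd3g (254 in memory, 502 in naive) and Zap70 (221 and 424) were above it in naive only, and Cd2 and Cd247 in neither. On the B chip Thy1, which mouse T cells carry on their surface, read 2848 in memory and 6184 in naive, a log2 ratio of -1.12 that was inside 2-fold with the median ratio set to 0 (-0.97), with quantile normalization (-0.34) and with lowess (-0.14). Cd3d read 959 in memory and 1115 in naive, and Cd8a read 498 and 352, the naive value under the limit. On the memory A array 4 of 6 T cell markers were above noise, among them Cd3e at 317. Markers of other cells were above noise as well. Of 13 macrophage and monocyte markers on the memory A array 10 were above noise, and so were 3 of 5 granulocyte markers, S100a8 (2483), S100a9 (2162) and Ngp (1811). Of the NK cell list 3 of 5 were above noise, Fcer1g (2267), Klra7 (283) and Eomes (205). Klrb1c (18) and Klra3 (97) were under the limit, so the list did not go 1 way. For dendritic cells and MHC class II 2 of 4 were above noise. The B cell, erythroid and stromal lists had 2 of 7, 2 of 4 and 1 of 6. Over all 4775 genes with a single symbol on that array, 29.5% were above noise. The B cell and stromal counts did not exceed that share, so they do not show that such cells were present. In RNA from a whole preparation, fewer cells of a type and less RNA per cell cannot be told apart.

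Il1r2 was the only member measurable in both populations, and it was higher in memory. It encodes the type 2 IL-1 receptor, a decoy that binds IL-1 without signalling and is made by neutrophils, macrophages and some activated lymphocytes. Its deposited values were 1066 in memory and 513 in naive. After scaling they were 1058 and 517, a 2.05-fold difference (log2 ratio 1.03). Both signals lay above the noise limit, the naive one by 94 units.

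A ratio of at least 2-fold with the brighter array at 2 times the limit or more counted as a call. Of the 9 members on the B chip 1 passed upwards and 0 downwards, and because only Il1r2 was above noise, 1 of 1 measured member was called. The background for these counts is 462 measured genes out of 1760, with 8.87% called higher and 8.66% called lower. That balance depended on scaling: the higher genes made up 50.6% of all called, against 61.4% with the median ratio set to 0, 68.4% with quantile and 69.2% with an intensity-dependent (lowess) correction. Of the 41 genes called higher, 24 were above noise on both arrays, as Il1r2 was, and the ratios of the other 17 are lower bounds. Among the 24, the Il1r2 ratio was number 21. It sat just beyond the 2-fold line, by less than probe sets of a single gene usually differ: for 33 genes with several probe sets above noise on both arrays, the log2 ratios within a gene spanned a median of 0.26. Il1r2 had 1 probe set, so its own agreement could not be checked.

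**Figure D1:**
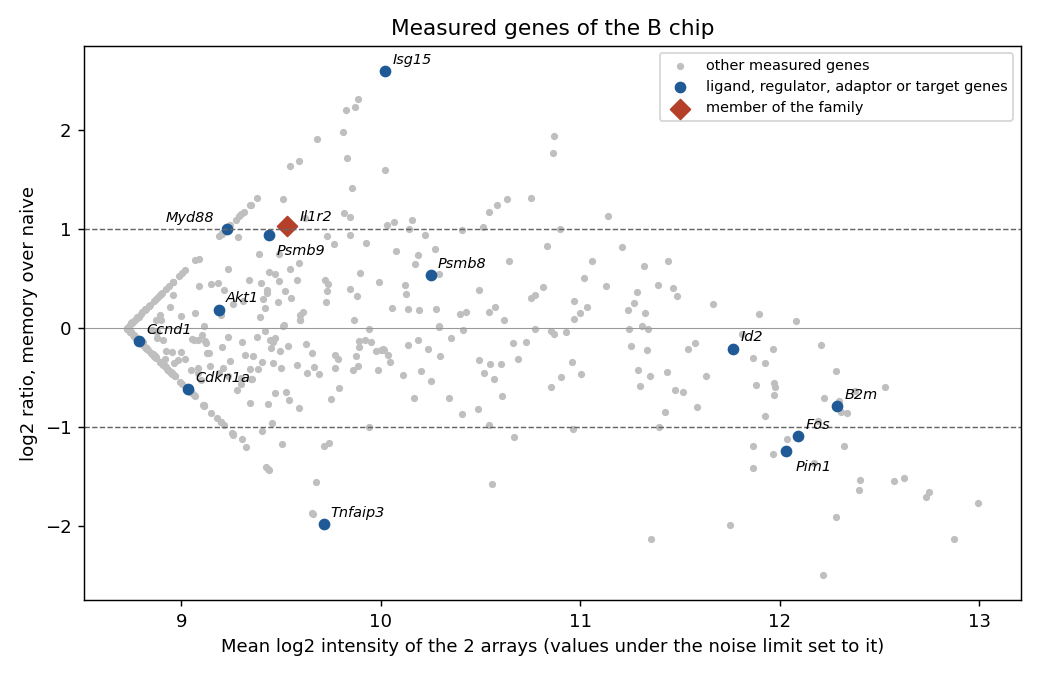
Each point is 1 of the 462 measured genes of the B chip, with the mean log2 intensity of the memory and naive arrays on the horizontal axis and the log2 ratio of memory over naive on the vertical axis. Il1r2 (diamond, 1.03) lies on the upper 2-fold line (dashed) beside Myd88, while Pim1 and Fos lie at the bright end, where most genes have ratios below 0.

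The Il1r2 ratio kept its side of the 2-fold line under every scaling tried, at 1.06 without scaling, 1.18 with the median ratio set to 0, 1.05 with quantile normalization and 1.10 with the lowess correction. Doubling the noise limit ended the call. The memory value of 1058 then no longer reached 2 times the limit, so no call was possible. The naive value lay under the doubled limit, which left a lower bound of 0.32. Macrophage markers moved the same way on this chip: 6 of 11 measured were called higher and 0 lower, and the summed signal of the 13 on the chip was 28759 in memory and 16511 in naive, with Cybb at or below 0 in naive. Of the granulocyte markers 0 of 4 measured were called in either direction, and the summed signal of the 6 on the chip was 10243 and 10962, none of them at or below 0. The part of either cell type in the Il1r2 value was not tested.

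Because Il1r2 is the member with a measured difference, the 250 bases before its start site are shown (RefSeq, GRCm38.p6, chr1:40085843-40086092, plus strand). The capitals mark the only match in it to TTCNNNGAA, the palindromic core that STAT dimers bind, searched on both strands.

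Il1r2: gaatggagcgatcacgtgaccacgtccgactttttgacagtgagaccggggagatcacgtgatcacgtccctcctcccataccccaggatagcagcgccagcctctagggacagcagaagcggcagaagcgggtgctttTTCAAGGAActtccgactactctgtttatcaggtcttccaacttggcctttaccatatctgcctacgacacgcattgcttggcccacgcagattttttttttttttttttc

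The match begins 111 bases before the start site. In RefSeq promoter windows of 300 bases (250 before and 50 after a start site), such a match occurred for 9 of the 35 members with a window and for 9.55% of all 27025 genes, or in 8.30% of 32851 windows. It describes the letters of the window and does not show binding.

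The other 8 members of the B chip were under the noise limit in both populations, so no ratio can be given for them. Il6ra, the IL-6 binding chain, read 414 in memory and 297 in naive, the memory value 8.84 units short of the limit. It became measurable with a lower limit or another scaling. With the limit halved both values were above it, and the log2 ratio was 0.48, inside 2-fold. With the median ratio set to 0 (0.12) and with quantile normalization (0.30) the naive value stayed under the limit. Those ratios are lower bounds and cannot show whether the difference reached 2-fold. Its signalling partner Il6st (gp130), which IL-6 shares with many other cytokines, read 94 and 237, and 53 from a separate probe set on the memory A array.

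The remaining B-chip probe sets, 8 with Il6st included, ranged from -153 to 139 in memory and from -456 to 237 in naive. Values in this range have no order, so none of them shows a direction. Il15ra, the chain that presents IL-15 to neighbouring cells, had 2 probe sets, which read 139 and -39.7 in memory and 14.1 and -246 in naive. Il2ra, the high-affinity IL-2 receptor chain of recently activated T cells, read -4.96 and -55.4, and 43 on the memory A array. The IL-1 co-receptor chain Il1rap read 92.3 and 164. The signalling chain of the interferon-gamma receptor, Ifngr2, read 17.9 and 49.4, and the IL-3 binding chain Il3ra -153 and -456. The only STAT on this chip, Stat5b, which with Stat5a carries IL-2, IL-7 and IL-15 signals, read -6.95 and 118.

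**Figure D2:**
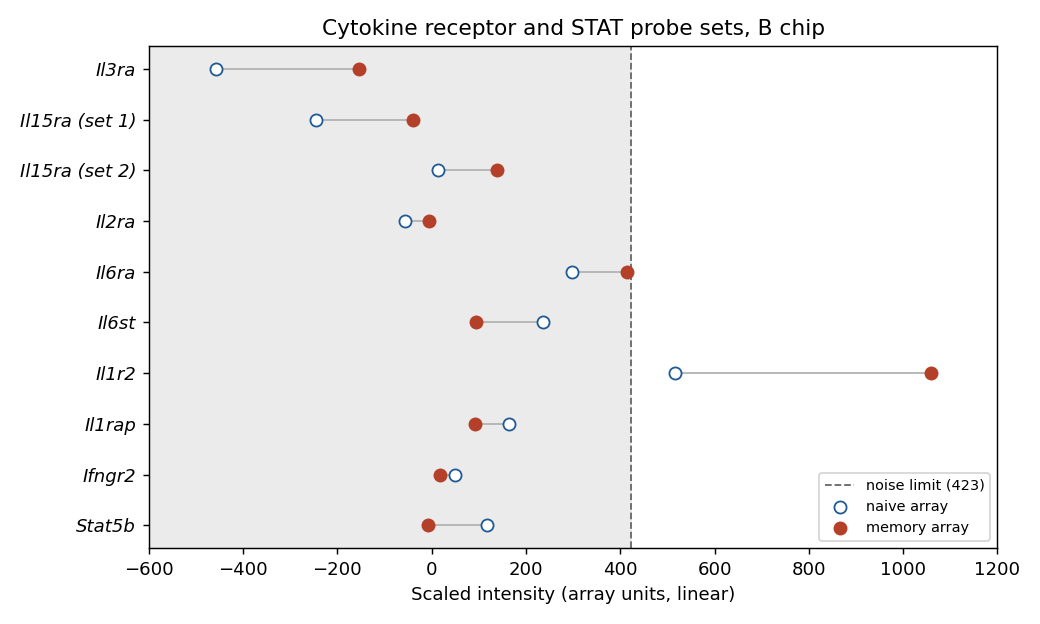
The 10 probe sets of the 9 members on the B chip, with scaled intensity on a linear axis, the memory array as filled and the naive array as open circles, and the noise limit of 423 as a dashed line. Il1r2 is the only gene outside the shaded range, and the memory value of Il6ra touches its edge.

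On the memory A array 14 of 34 members were above noise (41.2%), against 29.5% of all 4775 genes with a single symbol on that array. By group, 8 of 23 receptor chains and 6 of 11 JAK, STAT and SOCS genes were above noise. The count moved with the limit, to 23 with it halved and 9 with it doubled, and 9 members read between 92 and 184. Probe sets of 1 gene often fell on both sides of the limit. Of 291 A-chip genes with several probe sets and at least 1 above noise, 207 (71.1%) had another that was not. For 398 genes read on both chips, the memory arrays put 72.4% on the same side of their noise limits. Intensities of different probe sets depend on the probes, so the values below are not ranked between genes.

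**Figure D3:**
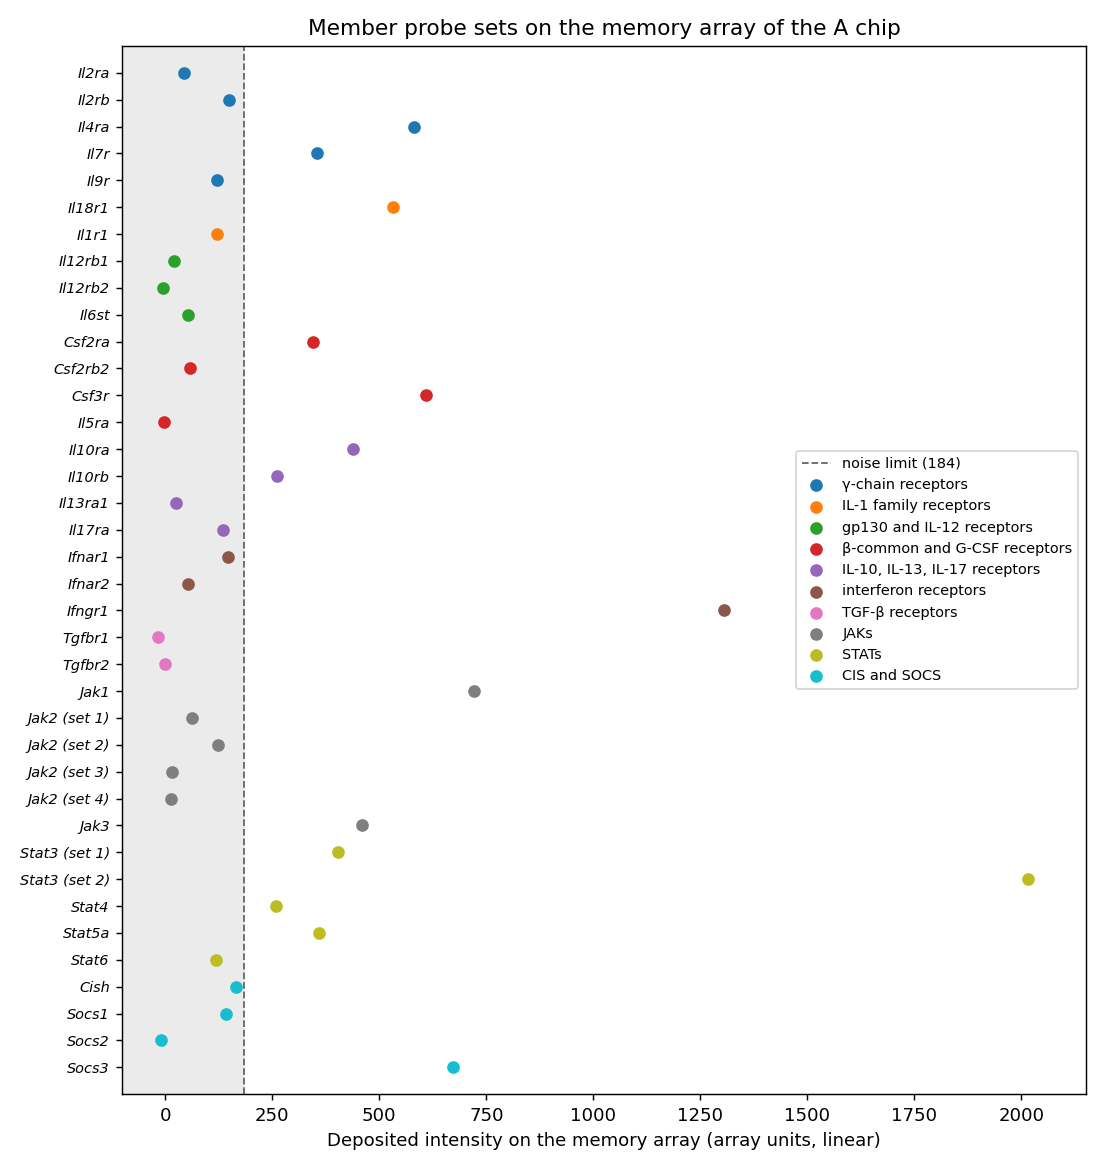
The 38 member probe sets of the A chip on the memory array, coloured by role, with deposited intensity on a linear axis and the noise limit of 184 as a dashed line. Both Stat3 probe sets (2016 and 404) and Ifngr1 (1305) lie above the limit, and the gp130 and IL-12 and the TGF-beta receptor chains all lie in the shaded range.

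Among receptors that use the common gamma chain, 2 of 5 were above noise. Il7r, the IL-7 receptor chain that marks resting T cells, read 354. Il4ra, the IL-4 binding chain, read 581, above noise. Il13ra1, a partner it can pair with in place of the common gamma chain, read 26, under the limit. Il2rb, the beta chain that IL-2 and IL-15 share and that memory CD8 T cells are known to carry, read 148. That is under the limit but above its halved value, so the array neither measured it nor placed it near 0. Il9r read 120.

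In the IL-1 family, Il18r1, the IL-18 binding chain through which memory CD8 T cells and NK cells can be prompted to make interferon-gamma, read 533. Il1r1, the signalling IL-1 receptor whose ligand Il1r2 captures, read 120 and was not above noise. The signalling receptor and the decoy sit on different chips, so they cannot be set against each other. The inhibitory ligand of the same family, Il1rn, which is no receptor chain and was counted among the ligands, read 264.

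None of the 3 gp130 and IL-12 receptor chains on the A chip was above noise. The IL-12 receptor chains Il12rb1 and Il12rb2, which drive interferon-gamma production through Stat4, read 20 and -5.

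Of the IL-10 receptor, both chains were above noise: the ligand-binding Il10ra at 439 and the widely used Il10rb at 262. Il17ra, the receptor chain for IL-17, read 134. Il10rb lost its place when the higher noise limit of the naive A array, 296, was used.

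The interferon-gamma receptor chain Ifngr1 read 1305, far above noise and still so with the limit doubled. Both chains of the type I interferon receptor were under the limit, Ifnar1 with 147 and Ifnar2 with 54. The TGF-beta receptors Tgfbr1 and Tgfbr2, whose signal restrains T cells, read -17 and 0.

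Among receptors of the GM-CSF and G-CSF type, Csf3r, the G-CSF receptor of neutrophils and their precursors, read 608 and Csf2ra, the GM-CSF binding chain, 345. The IL-3 receptor beta chain Csf2rb2 read 57 and Il5ra, the IL-5 binding chain of eosinophils, -4. Beside these, 3 of 5 granulocyte markers on the memory A array were above noise (summed signal 6557), with Elane at 73 and Cxcr2 at 28, and 10 of 13 macrophage markers (summed signal 14993). No marker of either list was at or below 0 on that array. The part of these cells in the Csf3r and Csf2ra signals was not tested.

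Of the JAKs, Jak1, the kinase that serves the common gamma chain, gp130 and interferon receptors, read 722. Jak3, which pairs with the common gamma chain and is largely confined to blood cells, read 460. Both kept their place with the limit doubled. Jak2, the kinase of the GM-CSF, IL-12 and interferon-gamma receptors, was read by 4 probe sets, at 123, 63, 16 and 13, all under the limit.

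Among the STATs 3 of 4 were above noise. Stat3, the factor downstream of IL-6, IL-10 and IL-21, had 2 probe sets, at 2016 and 404. Both were above noise, though they differed widely on the same array. Stat5a read 359. Stat4, downstream of IL-12 and type I interferon, read 258 and lost its place with the limit of 296. Stat6, the IL-4 factor, read 118.

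Of the feedback inhibitors only Socs3 was above noise, at 672. It binds gp130 and shuts off Stat3 signalling. Cish, which is induced through Stat5 and binds the IL-2 receptor beta chain, read 166, under the limit. Socs1, which blocks JAKs below the interferon receptors, read 141, and Socs2, an inhibitor of growth hormone signalling, read -11. With the limit halved Cish and Socs1 joined Socs3.

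Sequences at the start sites of Socs3 and Cish are shown because these are feedback genes on which STATs act, 1 of them above noise and 1 under the limit. Capitals again mark TTCNNNGAA. The Socs3 sequence covers the 250 bases before the start site (chr11:117969367-117969616, minus strand), and the Cish sequence is the 20-base stretch from the annotated start site that holds its 2 matches (chr9:107296659-107296678, plus strand), both RefSeq, GRCm38.p6.

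Socs3: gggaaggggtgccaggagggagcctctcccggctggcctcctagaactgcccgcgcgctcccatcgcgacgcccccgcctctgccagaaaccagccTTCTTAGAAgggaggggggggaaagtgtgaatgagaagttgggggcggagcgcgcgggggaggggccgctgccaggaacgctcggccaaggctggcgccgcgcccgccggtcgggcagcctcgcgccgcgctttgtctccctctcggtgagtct
Cish: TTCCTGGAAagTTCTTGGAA

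The single Socs3 match begins 154 bases before the start site. Both Cish matches lie from its start site onward, and the 250 bases before that site held none. The promoter window of Socs1 held no such match. As for Il1r2, the matches are letters and not shown to be used in these cells.

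Other genes of the pathway were followed in lists of ligands, inhibitors, adaptors and STAT or SMAD target genes. Their counts on the memory A array stand beside 29.5% above noise over all genes there. Of the ligands, 0 of 9 on the B chip were measured in either population, and 3 of 18 on the memory A array were above noise. These were Il1b (838) and Il18 (702), cytokines made mainly by macrophages, and the antagonist Il1rn. The ligands of T cells themselves were under the limit there, with Ifng at 101 and Il2 at -4.

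Among adaptors and transducers on the B chip, 1 of 2 measured was called higher. Myd88, the adaptor of IL-1, IL-18 and Toll-like receptors, read 849 in memory and 398 in naive, the latter under the noise limit, a difference of at least 2.01-fold. It passed the brightness requirement of 846 by a narrow margin and lost its call when the limit was doubled. The survival kinase Akt1 read 622 and 546, within 2-fold. On the memory A array 2 of 15 were above noise, the adaptor Grb2 (782) and the IL-1 receptor kinase Irak1 (270).

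Of the negative regulators, 1 was measured on the B chip and it was called lower: Tnfaip3, an inhibitor of NF-kappaB signalling, read 404 in memory, under the limit, against 1665, at least 3.94-fold lower, a call that the doubled limit ended (-0.98). On the memory A array the phosphatases Ptpn1 (1341), Ptprc (1204) and Ptpn6 (858), which act on JAKs or their receptors, and Usp18 (361), an inhibitor of the type I interferon receptor, made 4 of 9 above noise.

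Target genes on the B chip went both ways, with 1 of 9 measured called higher, 2 lower and 6 not called. Their median log2 ratio was -0.21, against -0.12 over all 462 measured genes. Among the 6, Cdkn1a (174 in memory, 648 in naive) and Ccnd1 (385 and 462) were under the limit in memory. The ratios of Cdkn1a and Ccnd1 are bounds and cannot show whether the difference reached 2-fold. Isg15, an interferon-induced ubiquitin-like protein, read 2560 against 355, at least 6.06-fold higher. Pim1, a survival kinase induced through Stat5, read 2725 against 6448, 2.37-fold lower. Fos, which cytokine and growth factor signals induce within minutes, read 2997 against 6366, 2.12-fold lower. Pim1 and Fos lie among the brightest genes, and their calls were lost with quantile normalization (-0.51 and -0.26) and with the lowess correction (-0.26 and -0.052). Fos also fell short with the median ratio set to 0 (-0.94). On the memory A array 19 of 27 target genes were above noise, among them Irf1 (1270), Tap1 (956), Mcl1 (746) and Bcl2 (688). Over all genes of that array the share was 29.5%. Under the limit were Gzmb (151), Cdkn1a (124), Fas (93), Myc (82), Pim2 (35), Bcl6 (33), Id2 (4) and Skil (-50). Yet Id2 read 3247 on the memory B array.

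**Figure D4:**
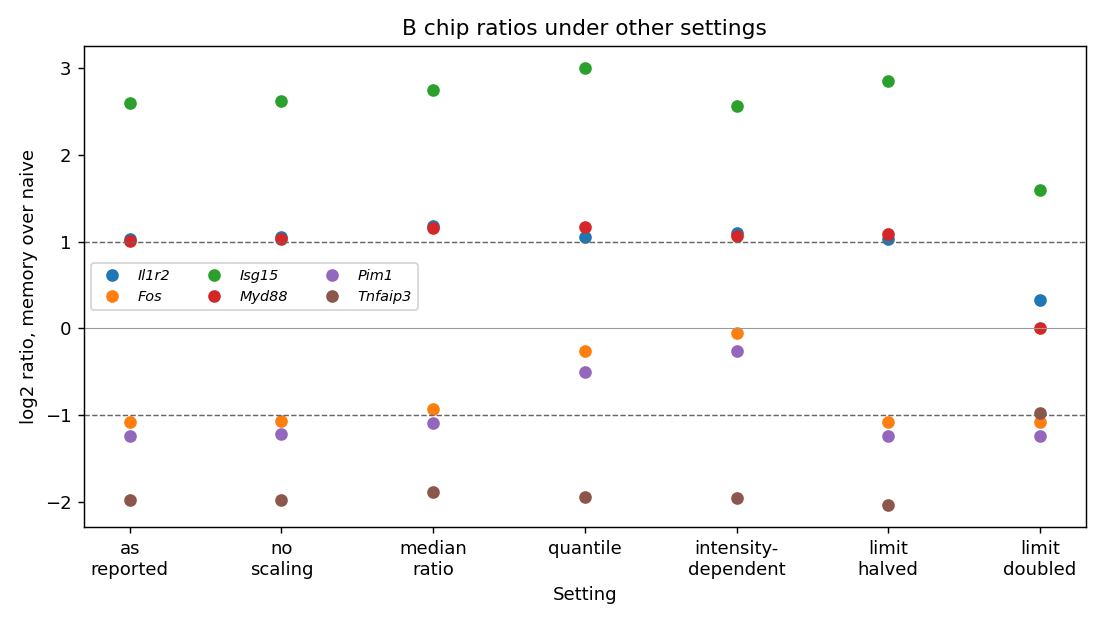
The log2 ratio of memory over naive on the B chip for Il1r2 and the 5 called pathway genes, as reported and under 6 other settings, with dashed lines at 2-fold. Il1r2 and Myd88 stay just above the upper line under every scaling and drop below it with the noise limit doubled, while Fos and Pim1 move towards 0 under the quantile and lowess corrections.

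The 3-prime to 5-prime ratios of control transcripts, a sign of RNA quality, differed between the B arrays without a common direction. They were 1.76 in memory and 1.25 in naive for Gapdh, and 0.75 and 1.17 for beta-actin. Their part in the ratios above was not tested.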

How the data were processed

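Intensity values were used as deposited by the authors, 1 whole number per probe set with negative values included. Per the labels' protocols, RNA was extracted with Trizol and made into cRNA for Affymetrix chips. For the software, the background correction and the build, nothing is given in the sources used here. Samples were grouped by title, and the chip was taken from the table. Gene symbols came from the platform annotation. All 48 member probe sets matched a RefSeq gene (GRCm38.p6) by Entrez number and 0 symbols changed. Of these, 39 carry a class letter in their name, which marks probes that may match related transcripts. Il1rn was left out as a ligand, and a probe set for 2 Csf2rb genes for its double symbol.

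On the B chip the arrays were scaled to 1 common 2% trimmed mean without control probe sets (factors 0.993 and 1.01). Values under the noise limit, taken from the noisier array, were raised to that limit before taking log2 ratios. A gene was read by its brightest probe set. A values were not scaled. Precision is limited by the number of arrays. The calculation was tested on simulated data, with larger changes in brighter probe sets than that of Il1r2. A difference as small and as near the limit as that of Il1r2 was not simulated. Members, gene lists and alternatives were chosen with earlier results of these data known. Text names every member, pathway genes called on B, and further A-chip examples chosen after their values were seen. Python 3.11.15, pandas 2.3.3 and statsmodels 0.14.6 were used.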

Additional observations from a re-analysis of the deposited data

How the results depend on the processing

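Under each scaling tried (none, median ratio, quantile, lowess with a span of 0.4), with a gene's probe sets averaged, with the limit halved and with genes above the noise limit on both arrays only, 1 member of the B chip was higher and 0 lower. The count of higher members was 0 with the limit doubled, 0 with a 3-fold threshold and 0 with only probe sets free of a class letter, where no member was measured because the Il1r2 probe set carries one. The median over measured members, 1.03 and equal to the Il1r2 ratio as reported, was 0.32 with the limit doubled and remained 1.03 with the 3-fold threshold, which it does not reach. It was 0.65 with median-ratio scaling, 0.68 with quantile normalization and 0.48 with the limit halved, where Il6ra, and with the halved limit Il6st, were measured as well. With median-ratio scaling and quantile normalization the Il6ra ratio in that median is a lower bound.

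Over all genes of the B chip, 41 were higher and 40 lower as reported. The counts were 52 and 24 with quantile normalization, 45 and 20 with lowess, 52 and 82 with the limit halved, 15 and 24 with it doubled, 63 and 71 at 1.5-fold, 12 and 12 at 3-fold, 2 and 4 without class letters, and 24 and 30 with both arrays above the limit. The median log2 ratio of measured genes moved from -0.12 to -0.0048 with median-ratio scaling. The 14 A-chip members above noise became 23 with the limit halved, 9 with it doubled, 12 with the limit of 296, and 2 of 5 without class letters (Jak1 and Socs3). No paired analysis was possible because each population had 1 array per chip, and for the same reason no array could be left out. For 8 of the 9 members on the B chip the signal lay under the noise limit on both arrays, so a difference was not detectable.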
